A study of Bos taurus with 8 samples.

Results

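ZFP36, ZFP36L1, ZFP36L2 and ZC3H12A encode proteins that shorten the life of mRNA, and their transcripts were followed in blood mononuclear cells of cattle after lipopolysaccharide (LPS, a component of the outer membrane of Gram-negative bacteria). The genes were taken by symbol, and each had 1 row among the 21861 genes of every scRNA-seq table: ENSBTAG00000008573 (ZFP36), ENSBTAG00000025434 (ZFP36L1), ENSBTAG00000003553 (ZFP36L2) and ENSBTAG00000011316 (ZC3H12A). Blood of 4 lactating Holstein females was mixed into 1 pool and divided into 4 parts. The control part had no LPS, and the others were kept at 37 °C with LPS (2 µg/ml) over 2 h, 4 h or 8 h before mononuclear cells were isolated. The time that the control part spent in culture was not given in the sources used here. Each treatment gave 1 scRNA-seq and 1 scATAC-seq library of the same pool, so there was no replicate, no p-value could be given, and the 95% intervals in brackets cover counting error only.

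ZFP36 (tristetraprolin), ZFP36L1 and ZFP36L2 are zinc finger proteins that bind AU-rich elements in the 3' end of mRNAs, many of them cytokine mRNAs, and bring in the CCR4-NOT complex, which removes the poly(A) tail. ZC3H12A (Regnase-1) is an endonuclease that cuts stem-loops in the mRNAs of IL6, NFKBIZ and other inflammatory genes, with UPF1 as a partner. In myeloid cells both ZFP36 and ZC3H12A are known as brakes on the response to LPS that are themselves induced by it, while ZFP36L1 and ZFP36L2 are best known for holding lymphocyte precursors in a resting state. LPS is sensed by TLR4 with CD14 as a co-receptor, which monocytes carry at a high level.

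In all, 28484 of 30756 barcodes were kept as cells, between 3411 and 9865 a library, with a median depth of 3997 to 4757 UMIs (unique molecular identifiers, 1 for each captured mRNA molecule). The 8 h library stood apart, since 26.6% of its kept cells had under 2000 UMIs, against 8.83% to 14.3% in the others. Cells were sorted in the data by raw markers into a CD14 gate (a monocyte marker), a CD3E gate (T cells), an MS4A1 gate (B cells) and an NCR1 gate (NK cells), with none of the other 3 markers. From no LPS to 8 h these gates held 707, 308, 117 and 66 cells (CD14), 3482, 4937, 3857 and 1550 (CD3E), 1692, 2392, 1894 and 663 (MS4A1) and 58, 97, 90 and 38 (NCR1). The CD14 gate was 9.04% of the cells without LPS and 3.12%, 1.58% and 1.93% in the LPS libraries, in order of time. The other markers were highest in the gate of their class: 11 monocyte markers summed to 7161 to 10673 UMIs per 1000000 UMIs (CPM) in the CD14 gate and at most 434 CPM in the others, 11 T cell markers to 1928 to 2146 CPM in the CD3E gate, 9 B cell markers to 1538 to 2179 CPM in the MS4A1 gate and 10 NK cell markers to 2098 to 2625 CPM in the NCR1 gate. T cell markers also summed to 613 to 715 CPM in the NCR1 gate, with 7 to 8 of 11 detected, and the part of T cells in it was not tested.

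In the CD14 gate, markers of other cells were present too. From no LPS to 8 h, the monocyte markers summed to 10673, 7161, 8376 and 10103 CPM there and the neutrophil markers to 13422, 9020, 11222 and 16888 CPM, with 6 of 7 detected and PGLYRP1 at 0, so the neutrophil list was the higher in every library. Nearly all of that sum was S100A8 and S100A12, which monocytes express too, and the more particular neutrophil receptors CXCR1 (3.86, 15.97, 73.1 and 6.29 CPM) and CSF3R (7.87, 29.7, 85.5 and 20.4 CPM) were highest at 4 h. T cell markers summed to 429, 588, 789 and 863 CPM, with 10, 7, 7 and 10 of 11 detected. Dendritic cell markers summed to 1076, 1308, 1428 and 1114 CPM, with 5, 4, 3 and 2 of 8 detected, and to at most 173 CPM in the other gates. The gate is therefore called by its marker, and its results are also given without the 51, 64, 46 and 9 cells that held a CSF3R, CXCR1 or CXCR2 UMI, which was decided with the values known. The part of other cells in the remaining values was not tested.

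In the MS4A1 gate the neutrophil markers summed to 425, 27.2, 28.0 and 178 CPM and the monocyte markers to 358, 101, 86.9 and 186 CPM, lowest at 2 h and 4 h. Its results are given also without the 374, 246, 184 and 302 cells that held an S100A8, S100A9 or S100A12 UMI, decided in the same way.

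ZC3H12A had its highest level at 2 h in all 4 gates. Over all cells it stood at 18.4, 58.9, 34.9 and 24.7 CPM from no LPS to 8 h, from 708, 2820, 1401 and 411 UMIs. The 2 h value was above every other library, and the 8 h value was still above the control. On the log2 scale of CPM plus 1 the ratios to no LPS were 1.63 [1.56, 1.8], 0.89 [0.79, 1.06] and 0.41 [0.25, 0.60], and the first of these took place 36 from the highest among the 12150 genes tested. The 3 ratios of any gene share the no LPS library.

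In the CD14 gate ZC3H12A was at 30.0, 152, 115 and 78.6 CPM. All 3 LPS libraries were above the control by more than 2-fold, with log2 ratios of 2.31 [2.11, 2.59], 1.90 [1.60, 2.26] and 1.36 [0.91, 1.84]. Without the cells that held neutrophil receptor UMIs these were 2.27, 1.76 and 1.34. In the CD3E gate it was at 12, 40.4, 30.4 and 18.5 CPM, with log2 ratios of 1.68 [1.53, 2.00], 1.28 [1.11, 1.60] and 0.59 [0.31, 0.95]. CD3E-gated cells had thus more than 2-fold the control level at 2 h and 4 h and less than that at 8 h. In the MS4A1 gate it was at 13.4, 43.3, 23.5 and 17.6 CPM, where only the 2 h value was past 2-fold (log2 ratio 1.62 [1.39, 2.01]) and the 8 h interval reached below 0 (0.37 [-0.07, 0.84]). In the NCR1 gate it had 4, 40, 14 and 4 UMIs in the 58, 97, 90 and 38 cells. The 2 h ratio there was 2.53 [1.14, 4.55], place 5 of 3718 from the highest, and the other libraries held under 20 UMIs with the control, which is too few to be counted as tested.

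ZC3H12A was higher in the CD14 gate than in the CD3E and MS4A1 gates in every library, by 1.26 [1.03, 1.62] and 1.11 [0.82, 1.52] on the log2 scale without LPS and by 2.03 [1.59, 2.55] and 2.10 [1.61, 2.71] at 8 h. The CD3E and MS4A1 gates did not differ beyond their counting error except at 4 h (0.36 [0.16, 0.59]). At 2 h the NCR1 gate lay between them and the CD14 gate at 84.6 CPM. The monocyte markers in the other 3 gates summed to 1.04% to 4.19% of their level in the CD14 gate, and ZC3H12A stood at 19.4% to 55.5% of its level there. The part of RNA released from other cells in these values was not tested.

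**Figure D1:**
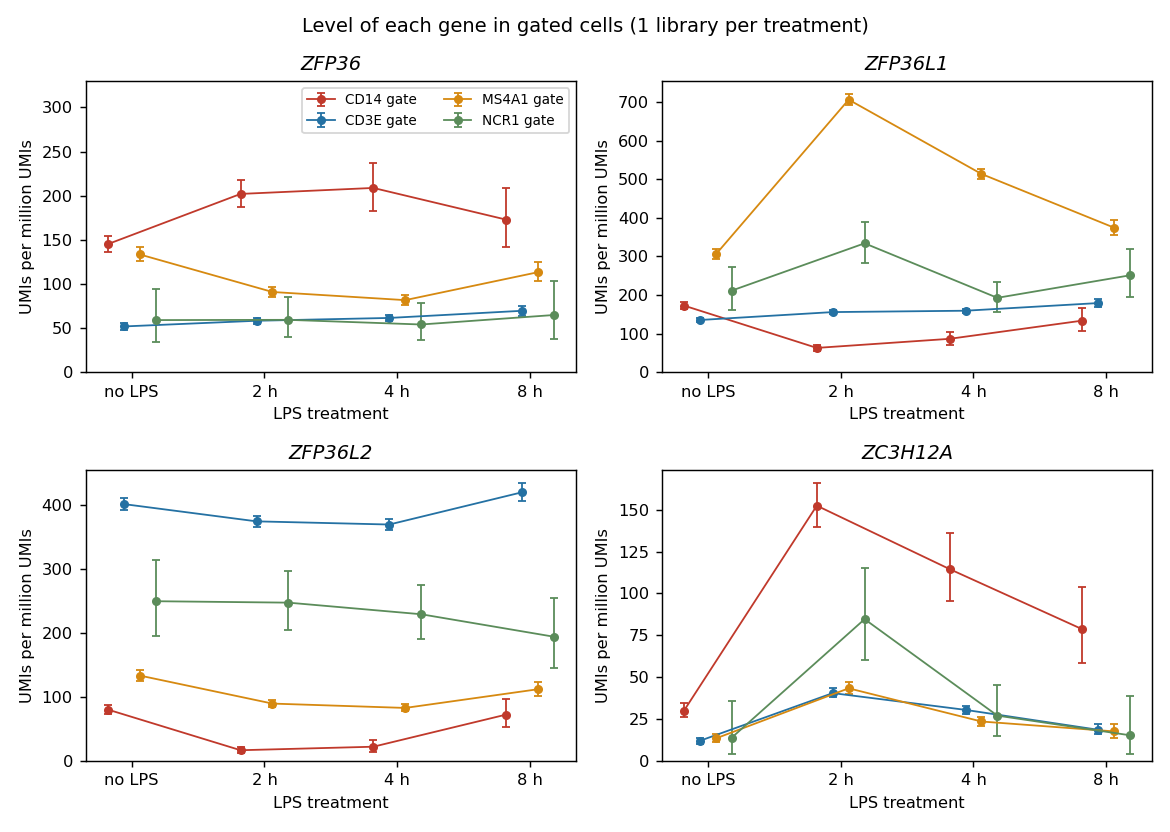
Level of each gene in UMIs per 1000000 UMIs (y axis, from 0) against LPS treatment (x axis) for cells of the CD14, CD3E, MS4A1 and NCR1 gates. Points are the sum over the cells of 1 library, and bars are exact 95% Poisson intervals. ZC3H12A has its highest point at 2 h in every gate, ZFP36L1 reaches 707 CPM at 2 h in the MS4A1 gate, and ZFP36L2 is lowest in the CD14 gate in every library.

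ZFP36 was all but level over the whole population, lower with LPS in the MS4A1 gate and higher in the CD3E gate. Over all cells it stood at 96.9, 97.3, 92.3 and 98.6 CPM, with log2 ratios to no LPS of 0.01 [-0.06, 0.07], -0.07 [-0.14, -0.00] and 0.03 [-0.06, 0.11]. In the CD14 gate it was at 145, 202, 209 and 173 CPM, higher than without LPS at 2 h (0.47 [0.34, 0.62]) and 4 h (0.52 [0.31, 0.73]), while at 8 h the interval reached below 0 (0.25 [-0.05, 0.54]). Without the cells that held neutrophil receptor UMIs the CD14 gate had 139, 150, 129 and 150 CPM, and the ratios were 0.10 [-0.06, 0.27], -0.11 [-0.42, 0.18] and 0.11 [-0.23, 0.43]. The higher ZFP36 level of this gate at 2 h and 4 h was thus not seen without those cells. Cells with 1 CD14 UMI and no other marker were in no gate, and numbered 89, 74, 34 and 104. They had 129, 379, 707 and 127 CPM of ZFP36, from 26, 95, 90 and 28 UMIs. The kind of cell in that group was not tested. At the main settings no ratio of ZFP36 passed 2-fold in any gate, although with each cell given the same weight the CD14-gate ratios were 1.37, 1.40 and 1.32.

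In the MS4A1 gate ZFP36 was at 133, 90.8, 81.6 and 113 CPM. All 3 LPS libraries were below the control, by log2 ratios of -0.55 [-0.68, -0.43], -0.70 [-0.84, -0.58] and -0.23 [-0.40, -0.07], and without the cells with S100A UMIs by -0.66, -0.72 and -0.25. Over the whole CD3E gate it was at 51.7, 58.2, 61.4 and 69.5 CPM, a small step up in each later library that came to 0.42 [0.27, 0.58] at 8 h. The T cell subsets given below did not keep this order, beyond counting error only in the WC1 subset. In the NCR1 gate, with 17 to 28 UMIs a library, it was at 59.0, 59.2, 54.0 and 64.7 CPM, and no change could be detected at that depth. Without LPS the CD14 and MS4A1 gates did not differ beyond counting error (0.12 [-0.01, 0.25]), whereas at 2 h the CD14 gate, with all its cells, was higher by 1.14 [1.02, 1.29] and at 4 h by 1.35 [1.14, 1.56].

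ZFP36L1 was higher with LPS in the MS4A1 gate and lower in the CD14 gate. Over all cells it stood at 209, 332, 287 and 252 CPM (log2 ratios 0.67, 0.46 and 0.27). In the MS4A1 gate it was at 306, 707, 514 and 375 CPM, with log2 ratios of 1.21 [1.14, 1.28], 0.75 [0.68, 0.82] and 0.29 [0.20, 0.39]. The 2 h value was past 2-fold, and each later library lay closer to the control. Without the cells with S100A UMIs the ratios were 1.13, 0.67 and 0.28. Among CD14-gated cells it was at 173, 62.8, 86.3 and 134 CPM, that is lower than without LPS in all 3 libraries, by -1.44 [-1.67, -1.25], -0.99 [-1.31, -0.70] and -0.37 [-0.70, -0.05]. Without the cells with neutrophil receptor UMIs they were -1.62, -0.96 and -0.29, the last with an interval that reached above 0. The monocyte and neutrophil marker sums of this gate were likewise lowest at 2 h and next lowest at 4 h, and the T cell sum was higher in each later library. The 8 h ratio became 0.16 without the upper limit of 3000 genes a cell, a limit that removed 25.8% of the CD14-gate cells of that library and 9.94% to 11.4% in the others.

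The share of MS4A1-gated cells with ZFP36L1 changed as well as its sum. With each cell thinned to 1000 UMIs, so that depth was equal, 24.0% [22, 26.2], 44.5% [42.5, 46.5], 35.6% [33.4, 37.8] and 30.0% [26.5, 33.8] of the MS4A1-gate cells held a ZFP36L1 UMI, and at full depth 58.5%, 76.5%, 75.7% and 65.0%. The CD14 gate went the other way, with 14.9% [12.3, 17.8], 6.0% [3.59, 9.32], 7.55% [3.31, 14.3] and 15.8% [7.48, 27.9] after thinning. In that gate the UMIs were uneven between cells: without LPS 1 cell held 44 of the 1162 ZFP36L1 UMIs, and the tenth of cells with the most held 57.7% of them. In the CD3E gate ZFP36L1 was at 135, 156, 159 and 179 CPM (0.20, 0.23 and 0.40). In the NCR1 gate it was at 212, 334, 193 and 251 CPM, and of these only the 2 h ratio had an interval above 0 (0.66 [0.22, 1.11]).

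**Figure D2:**
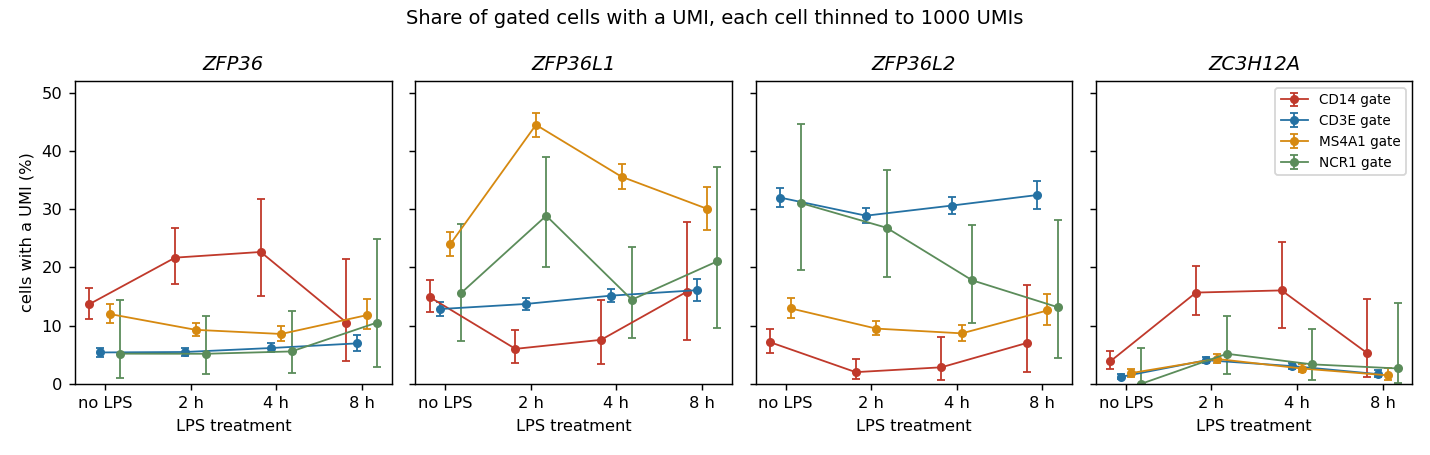
Percent of gated cells with at least 1 UMI of each gene (y axis, from 0) against LPS treatment (x axis), with each cell thinned to 1000 UMIs and shallower cells left out. Bars are exact 95% binomial intervals. ZFP36L1 in the MS4A1 gate goes from 24.0% without LPS to 44.5% at 2 h, while in the CD14 gate it goes from 14.9% to 6.0%.

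ZFP36L2 was higher in the lymphocyte gates than in the CD14 gate in every library. In the CD3E gate it stood at 402, 375, 370 and 420 CPM, so that none of the 3 LPS libraries differed from the control by more than 0.12 on the log2 scale (-0.10 [-0.15, -0.05], -0.12 [-0.17, -0.07] and 0.06 [0.00, 0.13]). Over all cells it was at 255, 241, 249 and 303 CPM. In the NCR1 gate it was at 250, 247, 229 and 194 CPM, with every interval across 0. The order CD3E, NCR1, MS4A1, CD14 from the highest to the lowest held in all 4 libraries, and each neighbouring pair differed beyond counting error. The log2 ratio of the CD14 gate to the MS4A1 gate was -0.73, -2.37, -1.86 and -0.62 from no LPS to 8 h.

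In the CD14 gate ZFP36L2 was at 80.2, 16.5, 22 and 72.3 CPM, from 540, 59, 25 and 46 UMIs. The 2 h and 4 h libraries were below the control by more than 2-fold, with log2 ratios of -2.21 [-2.69, -1.89] and -1.82 [-2.51, -1.29], and of -2.22 and -1.98 without the cells with neutrophil receptor UMIs. These are the libraries with the lowest monocyte and neutrophil marker sums in the gate. The 8 h library was back near the control (-0.15 [-0.62, 0.29]) and above the 4 h library by 1.67 [0.98, 2.48], although with each cell given the same weight its ratio to the control was 0.60. The thinned share of cells with a UMI was 7.14% [5.31, 9.36], 2.0% [0.737, 4.30], 2.83% [0.588, 8.05] and 7.02% [1.95, 17.0]. In the MS4A1 gate ZFP36L2 was at 133, 89.5, 82.7 and 112 CPM, with ratios of -0.57 [-0.70, -0.45], -0.68 [-0.82, -0.56] and -0.25 [-0.42, -0.09]. Without the cells with S100A UMIs they were -0.58, -0.65 and -0.36.

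Within the CD3E gate ZFP36L2 differed between T cell subsets more than between treatments. Cells with a UMI of WC1 genes (scavenger receptors of bovine γδ T cells) and none of CD4 or CD8A had 661, 648, 577 and 698 CPM, those with CD4 alone 366, 356, 354 and 411 CPM, and those with CD8A alone 255, 247, 216 and 282 CPM. The intervals of the 3 subsets did not overlap in any library, the closest being 319 CPM (upper bound, CD8A) and 388 CPM (lower bound, CD4) at 8 h. ZC3H12A was at 13.6, 61.3, 49.6 and 33.6 CPM in the WC1 subset, 13.7, 40.5, 30.8 and 15.5 CPM in the CD4 subset and 8.41, 17.9, 17.0 and 11 CPM in the CD8A subset. Its 2 h ratio to no LPS was 2.10 [1.33, 3.12], 1.5 [1.18, 1.97] and 1.01 [0.18, 2.08] in these subsets, all past 2-fold, and in the CD8A subset the 4 h ratio was close to it (0.93 [0.09, 2.01]). ZFP36 was at 68.8, 125, 82.6 and 113 CPM in the WC1 subset and 53.3, 46.6, 52.1 and 69.3 CPM in the CD4 subset. The CD8A subset had 33.6, 39.0, 45.8 and 43.9 CPM of it. No subset had a step up of ZFP36 in each later library, but only the WC1 fall from 2 h to 4 h was beyond counting error (-0.60 [-1.02, -0.19]). The CD4 fall from no LPS to 2 h (-0.19 [-0.43, 0.05]) and the CD8A fall from 4 h to 8 h (-0.06 [-0.63, 0.48]) were within it. Without LPS the subsets held 1038 (CD4), 328 (CD8A) and 248 (WC1) of the 3482 CD3E-gated cells, and the others were in no subset. The 8 h ratios of ZFP36 to no LPS were 0.70 [0.21, 1.21] (WC1), 0.37 [0.11, 0.65] (CD4) and 0.37 [-0.24, 1.00] (CD8A). The subsets were set up after the data were seen.

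The ratios of the 4 genes at 3 times made 12 for each group of cells, and the number past 2-fold is read against all genes. Over all cells 1 of 12 was past it, ZC3H12A at 2 h. Of all genes tested there, after 2 h of LPS 0.938% were higher and 2.46% lower, after 4 h 1.28% and 4.26%, after 8 h 0.492% and 2.92%. In the CD14 gate 3 were higher (ZC3H12A) and 3 lower (ZFP36L1 at 2 h, ZFP36L2 at 2 h and 4 h), where of all genes after 2 h 4.2% were higher and 21.3% lower, after 4 h 5.59% and 13%, after 8 h 5.4% and 8.44%. Lower values were thus common in this gate, and the median gene tested had log2 ratios of -0.56, -0.20 and -0.05 in order of time. With DESeq2 size factors the 2 h ratio of ZFP36L1 in this gate was -0.87, so its call depended on the scaling.

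Relative to that median, ZC3H12A in the CD14 gate was at 2.86, 2.10 and 1.41 and ZFP36, over all cells of the gate, at 1.03, 0.73 and 0.30. ZFP36L2 kept its direction with -1.65, -1.62 and -0.10, while ZFP36L1 was at -0.89, -0.79 and -0.32. From the lowest ratio, ZFP36L2 took place 95 of 7769 at 2 h and ZFP36L1 place 609. These positions describe 1 pair of libraries each.

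In the CD3E gate 2 of 12 were past 2-fold, both ZC3H12A, where of all genes after 2 h 0.616% were higher and 0.289% lower, after 4 h 1.08% and 0.713%, after 8 h 0.707% and 0.484%. In the MS4A1 gate 2 were higher at 2 h, ZFP36L1 and ZC3H12A, where the shares of all genes after 2 h were 2.54% higher and 1.75% lower, after 4 h 2.56% and 4.72%, after 8 h 1.7% and 1.92%. In the NCR1 gate 1 of the 10 ratios with enough UMIs was past it, ZC3H12A at 2 h, where these shares after 2 h were 4.57% and 2.96%, after 4 h 5.46% and 3.29%, after 8 h 3.88% and 3.78%.

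**Figure D3:**
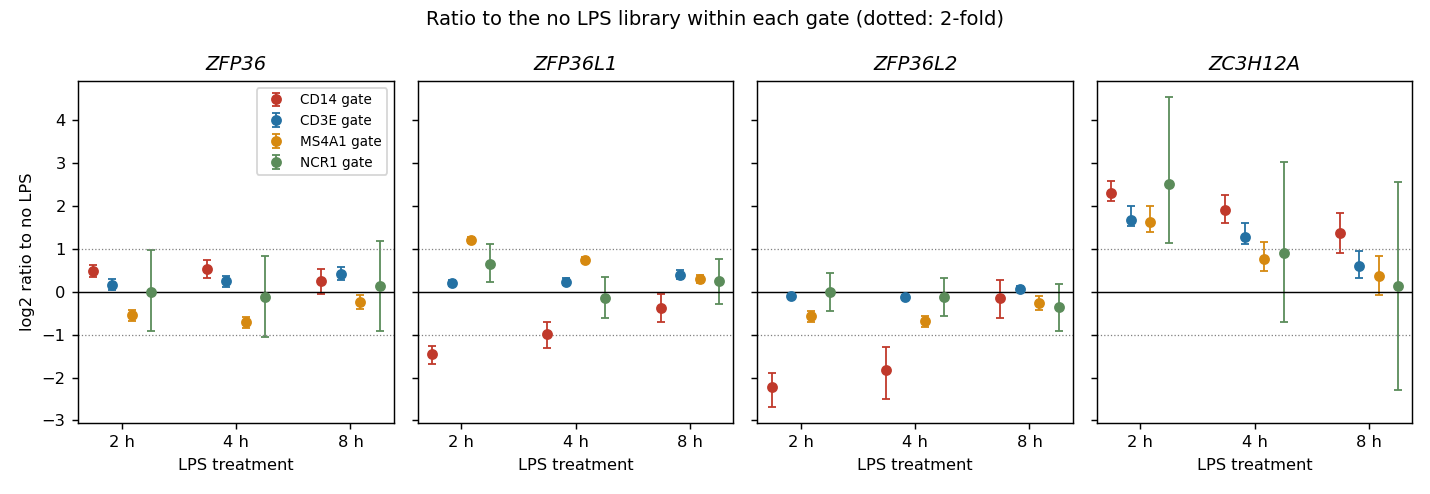
Log2 ratio of each gene to the no LPS library (y axis) at 2 h, 4 h and 8 h (x axis) in cells of the 4 gates. Bars are exact 95% counting intervals, the solid line is no difference and the dotted lines are 2-fold. ZC3H12A lies above 0 in every gate, ZFP36L1 lies above 0 at 2 h in the MS4A1 gate (1.21) and below it in the CD14 gate (-1.44), and ZFP36L2 lies lowest in the CD14 gate at 2 h (-2.21).

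Because the CD14 gate gave 17.5% of the UMIs without LPS and 7.46%, 2.83% and 3.82% after it, a level over all cells also moved with the mix of cells. With the gates held at their UMI shares without LPS, the log2 ratios of ZC3H12A were 1.88, 1.34 and 0.79, those of ZFP36 0.19, 0.26 and 0.21, those of ZFP36L1 0.51, 0.26 and 0.21, and those of ZFP36L2 -0.23, -0.24 and 0.07. Each ratio of ZC3H12A and ZFP36 was higher than over the cells as they came. Fewer CD14-gated cells in a library and less CD14 mRNA a cell cannot be told apart in these gates. Cells with no UMI of the 4 markers, 556 to 1441 a library, had 106, 194, 180 and 206 CPM of ZFP36 and 32.9, 96.0, 59.0 and 43.9 CPM of ZC3H12A.

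The genes whose levels were most like each member were found by Pearson's r of log2 CPM over the 16 sums of 4 gates in 4 libraries, among 9613 genes. The 16 points share 4 libraries and differ most by cell type, so the values are a description. For ZC3H12A these were PIM1 (a serine/threonine kinase, r = 0.922), STAT3, TRIP10, TRAF1 and JUNB. PIM1 was at 115, 366, 374 and 264 CPM in the CD14 gate and 65.1, 160, 145 and 98.5 CPM in the CD3E gate. For ZFP36 they were CD55 (a brake on complement, r = 0.970), SH3BP5, MARCHF1, THEMIS2 and MXI1. For ZFP36L1 they were PABPC1 (the cytoplasmic poly(A)-binding protein, r = 0.934), TIMM23, E2F4, RPS4Y1 and NT5C, and for ZFP36L2 XRCC6 (a DNA end-binding protein, r = 0.974), ARHGAP1, SLK, EPB41 and TMEM263.

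Among the decay machinery around the members, few genes were past 2-fold over all cells. Of 57 listed genes 56 had enough UMIs. The list held genes of CCR4-NOT, the exosome, decapping and the related RNA-binding proteins. It also held signalling regulators (MAPKAPK2, MAPKAPK3, PPP2CA, PPP2R1A, YWHAB, YWHAZ, MALT1 and TANK). After 2 h of LPS 0 were past 2-fold in either direction, after 4 h 2 were higher and 1 lower, after 8 h 1 was lower, beside 0.938% higher and 2.46% lower of all genes after 2 h, 1.28% and 4.26% after 4 h and 0.492% and 2.92% after 8 h. The list's median log2 ratio was 0.14, 0.21 and 0.19, against -0.03, 0.02 and 0.10 for all genes tested. XRN2, a nuclear 5' to 3' exonuclease, stood at 143, 186, 289 and 178 CPM, and ZC3H12D, a relative of ZC3H12A, at 19.1, 33.9, 43.0 and 36.3 CPM. Both were highest at 4 h, later than ZC3H12A, and the gene past 2-fold lower at 4 h and 8 h was ZC3H12C, with 134 UMIs without LPS and 39 and 17 in those libraries. In the CD14 gate, which held 98 of the 134, ZC3H12C was at 14.6, 15.7, 10.6 and 14.1 CPM, with every interval of its ratios across 0.

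Within the CD14 gate 3 of 51 of these genes were past 2-fold higher and 6 lower at 2 h, where 4.2% of all genes were higher and 21.3% lower, and the list median was -0.43 against -0.56 for all genes tested. N4BP1, an RNA-cutting protein of the same nuclease fold family, was at 67.3, 213, 161 and 107 CPM, and TOB1, an adaptor of CCR4-NOT, at 15.4, 39.8, 44.0 and 22 CPM. BTG2, another such adaptor, was at 23.3, 56.9, 35.2 and 23.6 CPM. ELAVL1 (HuR), which binds AU-rich elements and stabilises mRNA, was at 25.7, 10.9, 21.1 and 25.1 CPM. At 4 h 3 of 51 were higher and 1 lower, beside 5.59% and 13% of all genes. At 8 h 1 was higher and 0 lower, beside 5.4% and 8.44%. The list medians were -0.04 and 0.08, against -0.20 and -0.05 for all genes tested.

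The target list held 53 transcripts, mostly cytokines and immediate-early genes, known in other species as bound or destabilised by a member. It was chosen with earlier results of these data known, so its counts beside all genes are a description. In the CD14 gate 46 of the 53 had enough UMIs at 2 h and 44 at 4 h and 8 h. After 2 h of LPS 25 were past 2-fold higher and 5 lower, after 4 h 20 and 3, after 8 h 10 and 2. The shares of all genes in this gate were 4.2% higher and 21.3% lower, 5.59% and 13%, and 5.4% and 8.44%. The list's median log2 ratio was 1.16, 0.83 and 0.53, and that of all genes tested -0.56, -0.20 and -0.05. Over all cells 16 of 53 were higher and 4 lower after 2 h (median 0.71). After 4 h, however, 4 of 52 were higher and 10 lower (median -0.01), and after 8 h 3 and 5 of 53 (median 0.0047). The shares of all genes over all cells were 0.938% higher and 2.46% lower, 1.28% and 4.26%, and 0.492% and 2.92%. The medians of all genes tested there were -0.03, 0.02 and 0.10. Higher targets were not particular to the CD14 gate. From 2 h to 8 h the CD3E gate had 16, 9 and 8 of 48 past 2-fold higher and 1, 6 and 0 lower. The MS4A1 gate had 25 of 46, 8 of 44 and 15 of 44 higher, and 1, 3 and 1 lower. The NCR1 gate had 11 of 25, 4 of 22 and 11 of 23 higher, and 1, 6 and 2 lower. A UMI count does not say how fast a transcript decays.

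CD69, an early activation antigen, was at 5.49, 393, 287 and 36.1 CPM in the CD14 gate, and CCL20, a chemokine, at 230, 5211, 1124 and 927 CPM. CSF3, the granulocyte growth factor, was at 365, 4771, 2361 and 1550 CPM, and IL23A at 2.08, 53.0, 0.881 and 0 CPM, the last a library in which 3 UMIs would be 4.71 CPM. All of these were highest at 2 h. TNF, the target by which tristetraprolin is best known, was at 76.3, 156, 99.6 and 130 CPM, and IL6, the target by which Regnase-1 is best known, at 1243, 4834, 1344 and 1029 CPM. Both had their highest level at 2 h, and IL6 was back near its control level at 4 h. CCL2 was at 34682, 10446, 7045 and 10465 CPM, FOS at 58.8, 14.6, 11.5 and 31.4 CPM and MYC was lower at 2 h by -1.65. These 3 were lower than without LPS at 2 h and 4 h by more than 2-fold. The largest 8 h ratios after CSF3 and CCL20 were those of PTGS2 (1.54), ICAM1 (1.24), PIM1 (1.2) and TNFAIP3 (1.09) among targets with at least 200 UMIs. The control cells of the gate already held CCL2, IL1B (9071 CPM) and CXCL8 (9131 CPM) at high levels, so a ratio to them is not a ratio to cells without inflammatory transcripts.

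**Figure D4:**
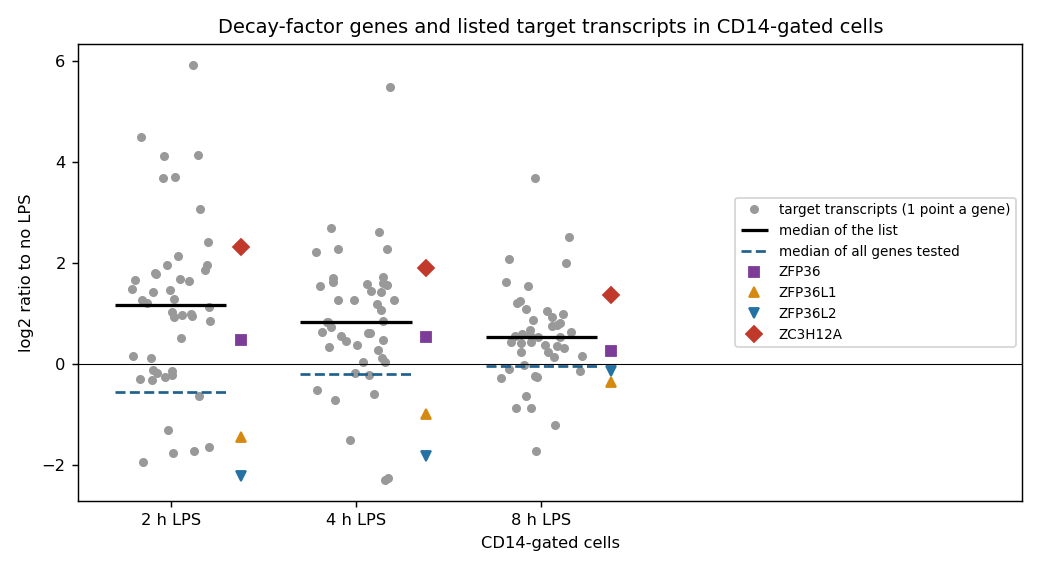
Log2 ratio to no LPS (y axis) in CD14-gated cells at 2 h, 4 h and 8 h (x axis). Each grey point is a listed target transcript, the solid bar is their median (1.16, 0.83 and 0.53), the dashed bar is the median of all genes tested (-0.56, -0.20 and -0.05), and coloured symbols are the 4 decay-factor genes, of which ZC3H12A is the highest and ZFP36L2 the lowest at 2 h and 4 h.

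In the scATAC-seq tables, which hold counts per gene and barcode, accessibility differed little between LPS times at 3 of the 4 members and more at ZFP36. ZFP36L1 was at 354, 336, 355 and 369 counts per 1000000 counts from no LPS to 8 h, ZFP36L2 at 302, 280, 288 and 288, and ZC3H12A at 265, 259, 256 and 282. Between the 3 LPS libraries none of these differed by more than 0.14 on the log2 scale. ZFP36 was at 498 without LPS, 266 at 4 h and 403 at 8 h, and its 2 h value was not analysed here, since that table as used here has no row for it. The 8 h library was above the 4 h library by 0.60 [0.53, 0.68], which is less than 2-fold. The share of all genes that differed by this much was not counted. Of all 11448 genes compared, 6.45% differed by 2-fold or more in either direction. The no LPS library was shallow, with 975012 counts and a median of 213 a barcode against 2250 to 5205 in the others, and it shared 228 barcodes with the 2 h library.

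Nuclei were assigned to a lineage where counts on T cell, B cell or monocyte marker genes prevailed, which gave 1416 T, 431 B and 92 monocyte nuclei in the 2 h library, 827, 326 and 81 in the 4 h library and 479, 172 and 100 in the 8 h library. The no LPS library gave too few nuclei to be used (2, 16 and 3). The monocyte list had 9, 8 and 5 genes present in the 2 h, 4 h and 8 h libraries. The T cell list had 9 in each, and the B cell list 9, 9 and 10. Monocyte nuclei at 8 h were thus assigned on fewer genes than at 2 h and 4 h, and the effect of this was not tested. ZC3H12A was at 429 [345, 527] counts per 1000000 in monocyte nuclei at 2 h against 229 [217, 241] in T and 277 [248, 308] in B nuclei. At 4 h it was at 520 [426, 629] in monocyte nuclei against 236 and 268. At 8 h, with 304 [234, 388], monocyte nuclei did not differ beyond counting error from B nuclei (336 [283, 395]). ZFP36 was at 451 [364, 553] in monocyte, 336 [304, 371] in B and 229 [214, 245] in T nuclei at 4 h, and at 634 [530, 751], 538 [470, 612] and 310 [280, 343] at 8 h.

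ZFP36 and ZC3H12A thus had more counts in monocyte than in T nuclei in each library where they could be read, with intervals that overlapped only for ZC3H12A at 8 h. ZFP36L1 and ZFP36L2 did not show this order. ZFP36L1 was between 293 and 387 and ZFP36L2 between 255 and 323 in all 3 lineages and libraries. For ZFP36L2, T nuclei were at 277, 284 and 258 and monocyte nuclei at 269, 255 and 318, although its UMI level was lower in the CD14 gate than in the CD3E gate by -2.31 (no LPS) to -4.42 (2 h) on the log2 scale.

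**Figure D5:**
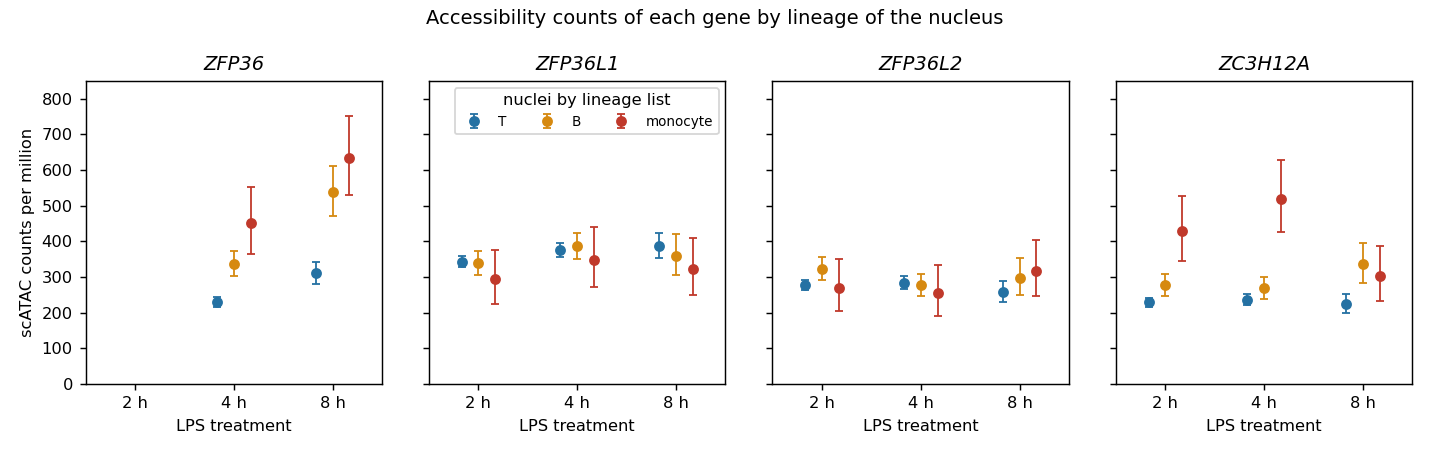
scATAC-seq counts per 1000000 counts of each gene (y axis, from 0) against the time with LPS (x axis) in nuclei assigned to the T cell, B cell and monocyte lineage. Bars are exact 95% counting intervals over pairs of counts. ZC3H12A is highest in monocyte nuclei at 2 h (429) and 4 h (520), ZFP36 is lowest in T nuclei at 4 h and 8 h, and it has no value at 2 h.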

How the data were processed

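For scRNA-seq (10x 3' v3) the tables deposited by the authors hold raw counts of UMIs, from Cell Ranger on the ARS-UCD1.2 build. For scATAC-seq the deposited tables hold raw counts for each gene in each barcode, and the counting rule is not given in the sources used here. Of the scATAC values above 0, 88.7% to 93.8% were even, so intervals were taken over pairs of counts.

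A barcode was kept as a cell when it had 200 to 3000 genes, 200 or more UMIs, and less than 20% of its UMIs on 13 mitochondrial genes. Gates needed 2 UMIs of CD14, or 1 of CD3E, MS4A1 or NCR1, and none of the other 3 markers. No doublet caller was run, and the 2163 cells that met several gates were left out of the gates. The 301 cells with 1 CD14 UMI and none of the other 3 markers were left out as well. scRNA-seq libraries shared 8 to 24 barcodes a pair. Totals were 58038800, 63770426, 56453080 and 30902952 UMIs from no LPS to 8 h. UMIs were summed per library and gate and scaled to 1000000 UMIs (CPM) with a pseudocount of 1 CPM. A gene was tested with at least 20 UMIs over both sums, and called at 2-fold. Named list genes were the largest changes past 2-fold with at least 200 UMIs, and 1 gene named by this rule is not reported here. TNF, IL6, IL1B, CXCL8, ZC3H12C and the T cell subsets were added after their values were seen, as were the runs without CD14-gate cells with a CSF3R, CXCR1 or CXCR2 UMI and without MS4A1-gate cells with an S100A8, S100A9 or S100A12 UMI. Intervals are exact (Poisson, binomial or conditional binomial) at 95%, without a pseudocount, and floors are 3 counts. Nuclei took a lineage with at least 6 counts on the marker lists and 2/3 of them on 1 list. Alternatives used edgeR 4.0.16 and DESeq2 1.42.0 for scaling factors only. The ratio step was tested on simulated data. Members and lists were chosen with earlier results of these data known.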

Additional observations from a re-analysis of the deposited data

Results flagged for a closer look

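In 7 of 12 combinations of gene and time, the ratio to no LPS was above 0 in 1 gate and below 0 in another, with both counting intervals clear of 0. The share of all genes that met this rule was not counted, so the 7 are not read as a trait of these genes. The difference between the gates was not tested over replicates, since each treatment had 1 library. ZFP36L1 had the widest gap, between the MS4A1 gate and the CD14 gate, at 2.65 (log2) at 2 h and 1.74 at 4 h, and 0.77 between the CD3E and CD14 gates at 8 h. The last of these depended on the upper limit of genes a cell, without which the CD14-gate ratio was 0.16. ZFP36 differed between the CD14 and MS4A1 gates by 1.02 at 2 h and 1.23 at 4 h (without cells that held a CSF3R, CXCR1 or CXCR2 UMI the CD14-gate ratios were 0.10 and -0.11, with intervals across 0), and between the CD3E and MS4A1 gates by 0.65 at 8 h. ZFP36L2 differed between the CD3E and MS4A1 gates by 0.32 at 8 h, where the MS4A1-gate ratio was 0.02 with each cell given the same weight.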

How the results depend on the processing

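Over all cells the log2 ratios of ZC3H12A stayed above 0 under all 8 alternatives. With the gates held at their UMI shares without LPS (chosen after seeing the data, as were the runs without barcodes shared between libraries), ZC3H12A was at 1.88, 1.34 and 0.79 after 2 h, 4 h and 8 h, ZFP36 at 0.19, 0.26 and 0.21, ZFP36L1 at 0.51, 0.26 and 0.21, and ZFP36L2 at -0.23, -0.24 and 0.067. The sign of ZFP36 over all cells depended on the setting: it was 0.34, 0.26 and 0.26 with each cell given the same weight, -0.060, -0.14 and -0.063 without the upper limit of 3000 genes, and -0.11 (2 h) and -0.16 (4 h) in cells with at least 2000 UMIs. Same weights gave ZFP36L1 0.55, 0.36 and 0.19, ZFP36L2 -0.12 (4 h) and 0.15 (8 h), and ZC3H12A 0.70 (8 h). Without the upper limit ZFP36L1 was at 0.50 (2 h) and 0.31 (4 h) and ZFP36L2 at 0.080 (8 h). At 8 h edgeR's TMM and DESeq2's size factors gave ZFP36 -0.085 and -0.088, ZFP36L1 0.16 and 0.16, ZFP36L2 0.14 and 0.13, and the decay machinery median 0.078 and 0.075. The cause of these shifts was not tested.

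The CD14-gate count of 6 ratios past 2-fold became 10 with each cell given the same weight, since ZFP36 passed it at all 3 times and ZFP36L1 at 4 h. It was 6 without cells with a CSF3R, CXCR1 or CXCR2 UMI (chosen after seeing the data), where ZFP36 was at 0.10, -0.11 and 0.11 in place of 0.47, 0.52 and 0.25. DESeq2 size factors raised the 2 h ratios of this gate, with ZC3H12A at 2.88, ZFP36L2 at -1.65 and ZFP36L1 at -0.87. ZFP36L1 was then not past 2-fold, so the genes called at 2 h in this gate depended on the scaling. At 1.5-fold the MS4A1 gate had 6 and the NCR1 gate 2, and with all gates at 2 UMIs the NCR1 gate had 0 in place of 1, with fewer cells. The 2 h ratio of ZC3H12A there was 5.76 under that setting, with too few UMIs to be counted as tested. Of 384 alternative values of single ratios in the gates, 343 lay within the counting interval, 41 did not, and 0 of those past 2-fold changed sign. The target transcript median in the CD14 gate after 2 h was 1.69 with TMM, 1.74 with DESeq2 size factors, 0.97 with no minimum of UMIs and 1.28 with a minimum of 100. After 4 h it was 1.01, 1.03 and, with no minimum, 0.62. After 8 h it was 0.41 with no minimum and 0.29 without the upper limit of genes. Shares of cells without thinning were higher by construction. Of 33 lineage values of accessibility 32 stayed within their interval with at least 10 counts on the lists, as did 30 of 30 over all barcodes in their alternatives. No paired analysis was possible because each treatment had 1 library. The NCR1 gate and the 8 h CD14 gate, with 38 and 66 cells, limit what can be detected.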
